A study of Mus musculus with 27 samples.

Results

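The 41 genes described here act in mitosis, the stage of the cell cycle in which duplicated chromosomes are condensed, attached to a spindle, separated and shared between daughter cells. They were taken from a list of mitotic genes and each was read from the probe set that names that gene alone, the brightest one where a gene had several. This gave values for 40 of the 41 genes, out of 19938 genes read in the same way, and Ccnb1 was not analysed here. The 40 comprised 5 genes for cyclins, Cdk1 and regulators of mitotic transcription, 6 for mitotic kinases, 8 for the spindle checkpoint and kinetochore, 3 for anaphase ubiquitination and separase, 8 for kinesins and spindle microtubule proteins, 4 for mitotic chromosome structure and 6 for the central spindle and cytokinesis.

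Mitotic genes are transcribed together late in the cell cycle and are largely silent in resting cells, so that their mRNA level in a culture follows the share of its cells that are dividing. The MuvB complex controls them: it carries repressors in resting cells, and Mybl2 and later Foxm1 in cells that are about to divide. TGFβ1 is a secreted factor that slows the cycle of many cell types, in part through the Cdk inhibitor gene Cdkn2b, while its effect on fibroblast growth depends on the setting.

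The study exposed fibroblasts to 5 cardiac transcription factors and asked how raising or blocking TGFβ signaling altered their conversion to cardiomyocyte-like cells. Mouse embryonic fibroblasts (MEFs), from embryos of mixed background whose hearts had been removed, and cardiac fibroblasts (CFs), from hearts of adult mice, were grown over several passages. The genes for Tbx5, Mef2C, Gata4, Nkx2.5 and Hand2, together called HNGMT, were carried by lentiviruses under a tetracycline-responsive promoter, and 0TF cultures carried none of them. Total RNA taken on Day 3 was hybridised to 27 Affymetrix Mouse Gene 1.0 ST arrays, 1 for each culture. There were 9 groups of 3 cultures: MEFs with HNGMT and 2 ng/mL TGFβ1 (HNGMT+TGFβ1), with HNGMT and 0.5 µM SB431542 (HNGMT+SB) and with HNGMT and the vehicle (HNGMT+DMSO); MEFs without the factors under the same molecules (0TF+TGFβ1, 0TF+SB and 0TF+DMSO); and CFs with HNGMT and 2 ng/mL TGFβ1, 5 µM SB431542 or DMSO. SB431542 (SB) inhibits the type I receptors of TGFβ, Activin and Nodal. The protocol in the labels adds the rtTA activator and a Troponin T-GCaMP reporter by lentivirus, the molecules from Day -1 and doxycycline at 2 µg/mL from Day 0, without setting the 0TF cultures apart. For these cultures one label names an empty vector and another speaks of MEFs that were not transduced, so the sources do not settle which lentiviruses the 0TF cultures received. The labels call the cultures independent biological replicates but do not say how many embryos or mice they came from, so the p-values measure the spread between these cultures.

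Values are the deposited log2 levels, in which 1 unit is a doubling, and differences are the mean of one group minus the mean of the other. Array medians lay between 7.83 and 7.91 in MEFs and between 7.36 and 7.43 in CFs, and levels were therefore not tested between the cell types. Of the 15 fibroblast markers, Vim, Col1a1 and Fn1 were high in MEFs and CFs, whereas Tcf21 averaged 6.83 in 0TF+DMSO MEFs and 6.70 in HNGMT+DMSO CFs, below the array medians. The mean of the 15 was 12.29 in HNGMT+DMSO MEFs and 10.67 in HNGMT+DMSO CFs, a difference that was not tested. The CF cultures also held endothelial transcripts: Emcn averaged 13.03 in HNGMT+DMSO CFs and Cdh5 averaged 12.61 there. In HNGMT+SB CFs, replicate 3 stood apart from the other two cultures in the mitotic genes and in the marker lists, and results that rest on it are given with and without it.

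Among MEFs the mean level of the 40 genes was lowest in the cultures that received TGFβ1. It was 8.76, 8.96 and 8.94 in the 3 HNGMT+TGFβ1 cultures, 10.22, 10.27 and 10.26 in HNGMT+SB and 10.19, 10.36 and 10.33 in HNGMT+DMSO. It was 9.19, 9.21 and 9.27 in 0TF+TGFβ1, 10.04, 9.96 and 10.00 in 0TF+SB and 10.15, 10.05 and 10.12 in 0TF+DMSO. All 6 TGFβ1 cultures lay below the other 12 MEF cultures. The HNGMT+TGFβ1 cultures were the lowest of all MEFs, although the HNGMT+DMSO cultures were above the 0TF+DMSO cultures. A culture with fewer dividing cells and one with less of these mRNAs in each cell cannot be told apart in bulk RNA.

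**Figure D1:**
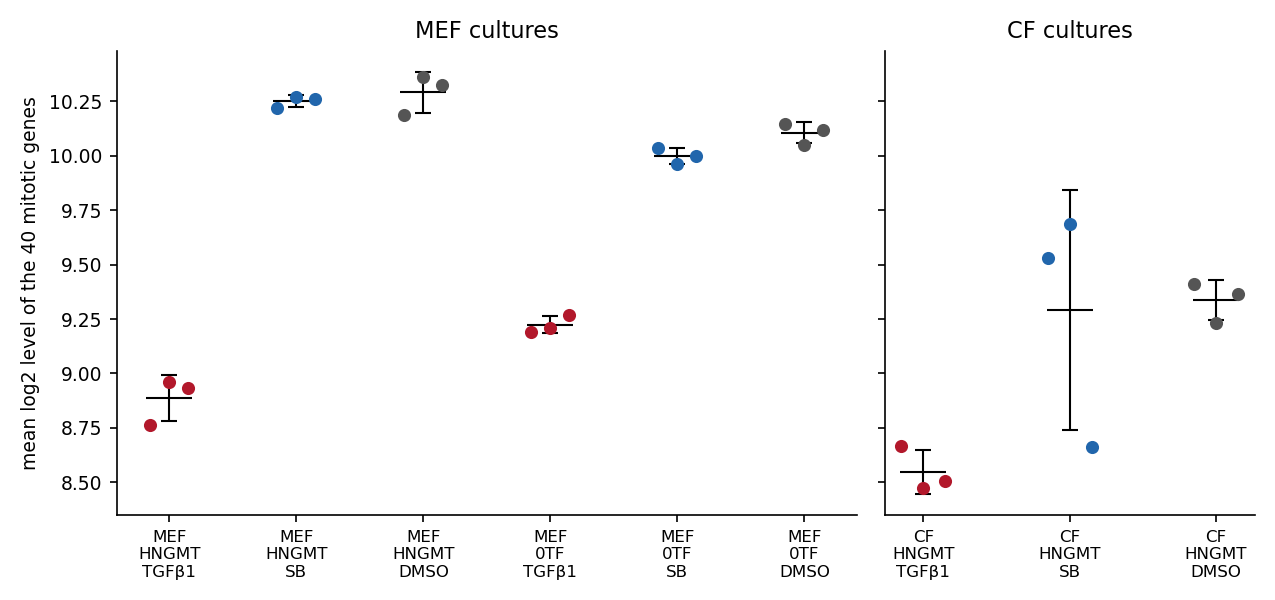
Mean log2 level of the 40 mitotic genes in each culture (points), with the group mean and SD (bars, n = 3), for the 6 MEF groups (left) and the 3 CF groups (right). TGFβ1 cultures are low in every panel, from 8.76 to 9.27 in MEFs, and replicate 3 of HNGMT+SB CFs, at 8.66, lies among the TGFβ1 cultures; levels are not comparable between the panels.

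TGFβ1 lowered the mitotic genes of MEFs that carried HNGMT, and 39 of the 40 passed the call used here, an adjusted p under 0.05 over all 19938 genes and at least a 1.5-fold change (limma). The same call was met in this direction by 3.54% of all genes. All 40 genes passed the adjusted p alone, against 14.3% of all genes, and in all 40 the 3 HNGMT+TGFβ1 cultures lay below the 3 HNGMT+DMSO cultures, against 16.2% of all genes. The median difference was -1.496, a 2.82-fold lower level, and the differences ran from -1.91 to -0.49, while the median over all genes was 0.02. No mitotic gene rose.

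Kif11, the kinesin that pushes spindle poles apart, showed the most negative difference: it measured 8.66, 9.03 and 8.90 in HNGMT+TGFβ1 MEFs and 10.66, 10.87 and 10.79 in HNGMT+DMSO MEFs. The groups did not overlap, and the level was 3.75-fold lower with TGFβ1 (log2 difference -1.91 ± 0.073, SE; adjusted p = 1.45e-12, limma, n = 3 each). Among the other spindle proteins the smallest change was in Tpx2, which nucleates spindle microtubules and activates Aurora A, at -1.39. All 8 genes of this group were called lower, with a median of -1.60.

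The checkpoint and kinetochore genes fell by a similar amount, with 8 of 8 called lower and a median of -1.49. Nuf2 and Ndc80 encode partners in the complex that binds microtubules at the kinetochore, yet they bounded the group: Nuf2 changed by -1.84 and Ndc80 by -0.93. Bub1 and Bub1b, kinases of the spindle checkpoint, changed by -1.82 and -1.80. Birc5, the survivin subunit of the chromosomal passenger complex, measured 7.78, 8.03 and 8.14 in HNGMT+TGFβ1 MEFs and 9.07, 9.24 and 9.23 in HNGMT+DMSO MEFs, a 2.29-fold lower level.

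The chromosome group included the proliferation antigen Mki67, which coats mitotic chromosomes and keeps them apart. It measured 9.67, 9.89 and 9.78 in HNGMT+TGFβ1 MEFs and 11.38, 11.60 and 11.54 in HNGMT+DMSO MEFs, so that every treated culture was more than 1 unit below every vehicle culture. The fold was 3.31 (log2 difference -1.73 ± 0.055, SE; adjusted p = 2.15e-13, limma). The condensin subunit Ncapg changed by -1.83 and its partner Ncaph by -1.07, and Top2a, the topoisomerase that untangles sister chromatids, by -1.58.

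Among regulators, Ccnb2, a B-type cyclin that activates Cdk1, changed by -1.62, Foxm1, the late activator of mitotic transcription, by -1.52 and Cdk1 itself by -1.02. Mybl2 was the one gene that missed the call: it measured 9.28, 9.30 and 9.32 in HNGMT+TGFβ1 MEFs and 9.80, 9.79 and 9.77 in HNGMT+DMSO MEFs. Its groups did not overlap and its adjusted p was 3.66e-05, but the level was 1.404-fold lower, under the 1.5-fold limit. Of the kinases, Plk1, which drives entry into mitosis and spindle assembly, changed by -1.60 and the centrosomal kinase Aurka by -1.06, with 6 of 6 called lower.

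The genes of anaphase changed least, with a median of -0.76 over 3 genes. Cdc20, which targets securin and cyclin B for destruction, changed by -1.18, the separase gene Espl1 by -0.76 and Ube2c, the ubiquitin-conjugating enzyme of the anaphase-promoting complex, by -0.69. In the cytokinesis group the actin-ring scaffold Anln changed by -1.70 and the central-spindle kinesin Kif23 by -1.15, and all 6 genes were called lower.

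**Figure D2:**
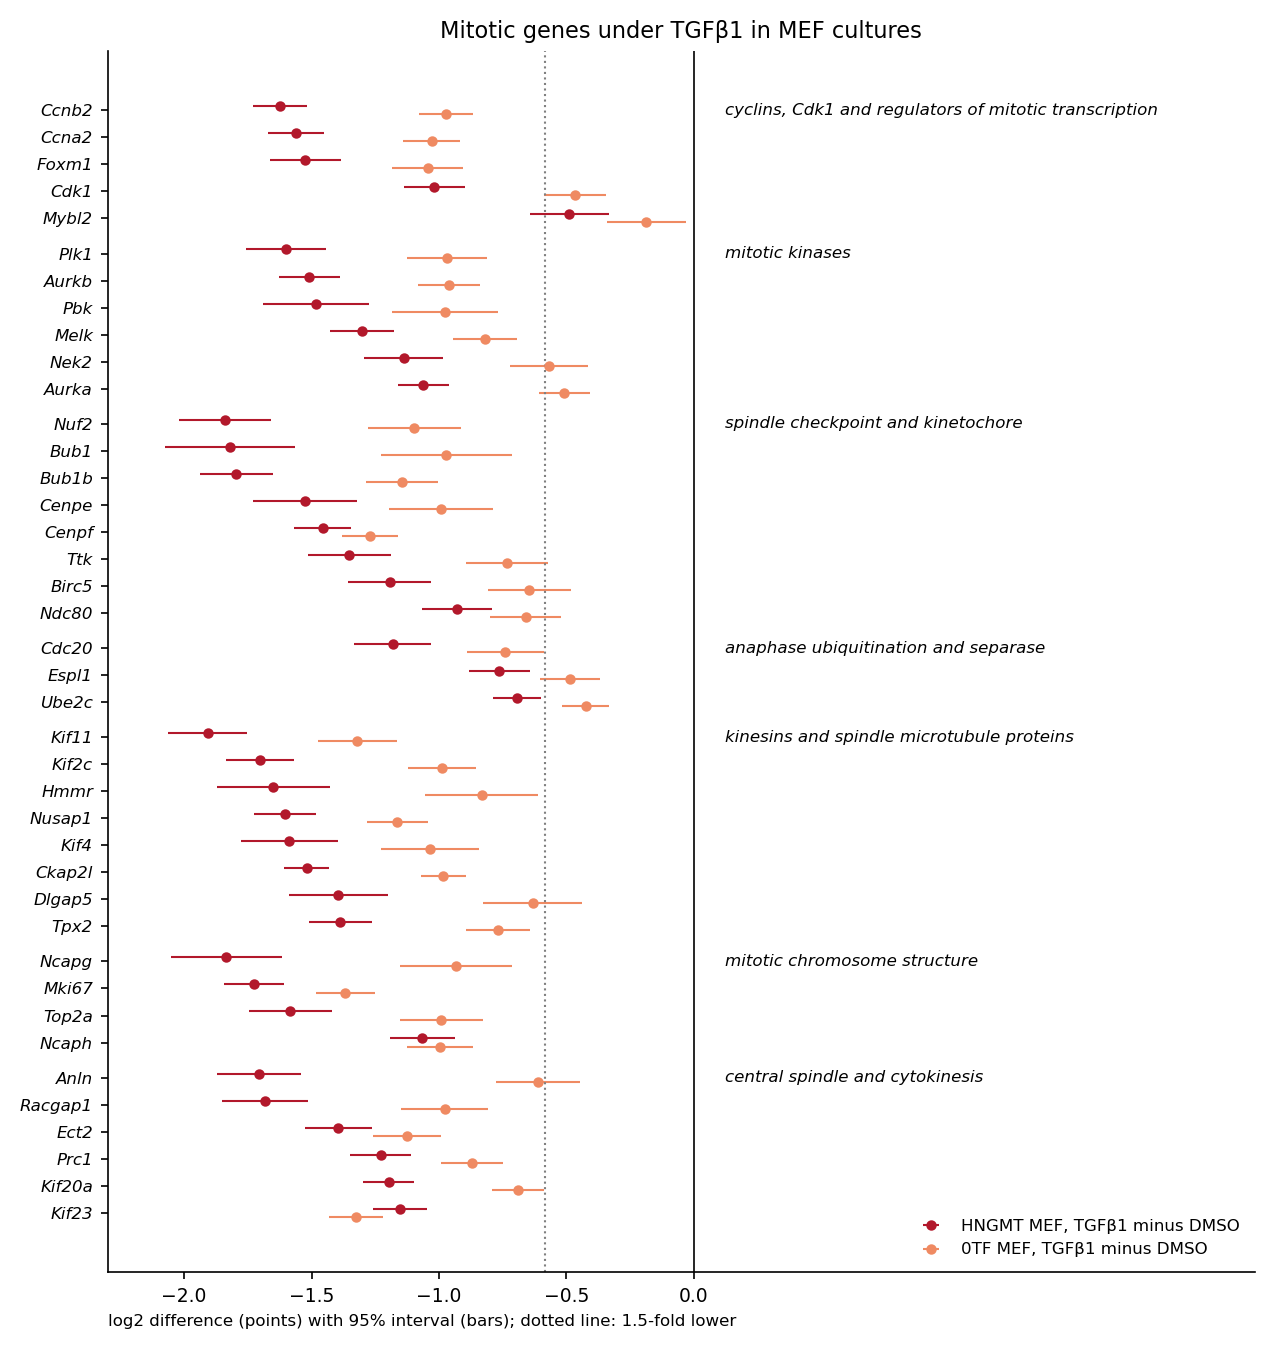
Log2 difference between TGFβ1 and DMSO for each mitotic gene in HNGMT MEFs (dark points) and in 0TF MEFs (light points), grouped by role, with 95% intervals from limma (bars) and a dotted line at a 1.5-fold lower level. All points lie below 0; the dark point is left of the light one for every gene but Kif23.

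In MEFs without the factors TGFβ1 also lowered the mitotic genes, and 34 of 40 were called lower, against 6.19% of all genes. All 40 passed the adjusted p alone (19.4% of all genes), and 39 had cultures that did not overlap (22.1% of all genes). The median difference was -0.97, a 1.96-fold lower level, beside 0.05 over all genes, and the range ran from -1.37 to -0.19.

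Here Mki67 showed the most negative difference, with 9.93, 10.01 and 9.97 in 0TF+TGFβ1 MEFs and 11.38, 11.28 and 11.35 in 0TF+DMSO MEFs. The treated cultures lay close together and far below the vehicle cultures, and the level was 2.58-fold lower (log2 difference -1.37 ± 0.055, SE; adjusted p = 7.73e-13, limma). Kif23 followed at -1.33, Kif11 at -1.32, the kinetochore protein Cenpf at -1.27 and the spindle protein Nusap1 at -1.16. Foxm1 changed by -1.04, Top2a by -0.99, Plk1 by -0.97, Cdc20 by -0.74 and Birc5 by -0.65. Of these, Foxm1 measured 8.61, 8.78 and 8.68 in 0TF+TGFβ1 MEFs and 9.74, 9.71 and 9.75 in 0TF+DMSO MEFs, without overlap. The 6 genes that missed the 1.5-fold limit were Cdk1 (-0.47), Aurka (-0.51), Nek2 (-0.57), Espl1 (-0.49), Ube2c (-0.43) and Mybl2 (-0.19). Mybl2 was also the gene whose groups overlapped, with 9.24, 9.29 and 9.46 in 0TF+TGFβ1 MEFs and 9.66, 9.54 and 9.35 in 0TF+DMSO MEFs.

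Other genes of mitosis and DNA replication moved with them. Of 56 further mitotic genes, 48 were called lower and none higher with TGFβ1 in HNGMT MEFs, and 32 were called lower and 1 higher in 0TF MEFs. Of 33 genes of replication licensing and DNA synthesis, 21 were called lower in HNGMT MEFs and 10 in 0TF MEFs, with medians of -0.73 and -0.45. A list of 20 G1 cyclins and CDK inhibitors did not move as a whole, with medians of -0.06 and -0.02. Of these 20, 3 were called lower and 0 higher in HNGMT MEFs, and 4 lower and 3 higher in 0TF MEFs. Cdkn2b, the inhibitor of Cdk4 and Cdk6 that TGFβ is known to induce, was 1.06 higher with TGFβ1 in 0TF MEFs (adjusted p = 1.69e-12, limma) and 0.36 higher in HNGMT MEFs (adjusted p = 5.65e-06), where it was under the fold limit. Cdkn2c, another inhibitor of these kinases, changed by -1.58 in HNGMT MEFs and by -1.55 in 0TF MEFs. The pocket-protein gene Rbl1, whose product is part of the repressive MuvB complex, changed by -0.97 in HNGMT MEFs and by -1.11 in 0TF MEFs. Both TGFβ1 comparisons have their own DMSO controls and share no culture.

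Several other lists moved in these comparisons. The mean level of 15 fibroblast markers was 11.84 ± 0.028 in HNGMT+TGFβ1 MEFs and 12.29 ± 0.0072 in HNGMT+DMSO MEFs, and 12.40 ± 0.038 in 0TF+TGFβ1 MEFs and 12.72 ± 0.027 in 0TF+DMSO MEFs (SD, n = 3). Of 10 adipocyte markers, 3 were called lower with TGFβ1 in HNGMT MEFs, with a mean of 8.07 ± 0.077 in HNGMT+TGFβ1 MEFs and 8.37 ± 0.062 in HNGMT+DMSO MEFs. In 0TF MEFs 2 were called lower, the lipase gene Lpl at -3.23 and Pparg, the regulator of fat cell formation, at -1.82, with a mean of 7.93 ± 0.027 in 0TF+TGFβ1 MEFs and 8.49 ± 0.020 in 0TF+DMSO MEFs. Of 14 targets of p53, 2 were called higher with TGFβ1 in HNGMT MEFs, against 2.23% of all genes called higher there, and 8 in 0TF MEFs, against 4.21%, led in 0TF MEFs by Eda2r at 1.33. The part of these shifts in the mitotic genes was not tested.

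Promoter sequences of 5 of the genes are shown because the genes moved together and the elements through which MuvB and the factor NF-Y act are known: the CHR, read as TTTGAA or TTCGAA, and the CCAAT box. Each stretch holds the 130 bases before the RefSeq start site in GRCm38.p6, read 5′ to 3′ on the strand of the gene, and capitals mark CCAAT or either form of the CHR on that strand or as the reverse complements ATTGG and TTCAAA. Kif11 fell most in HNGMT MEFs, Top2a, Cdk1 and Cdc20 fell in the same comparison, and Mybl2 changed least. Kif11 lies at chr19:37376252-37376381 on the plus strand, Top2a at chr11:99024190-99024319 on the minus strand, Cdk1 at chr10:69352913-69353042 on the minus strand, Cdc20 at chr4:118437344-118437473 on the minus strand and Mybl2 at chr2:163054505-163054634 on the plus strand.
Kif11: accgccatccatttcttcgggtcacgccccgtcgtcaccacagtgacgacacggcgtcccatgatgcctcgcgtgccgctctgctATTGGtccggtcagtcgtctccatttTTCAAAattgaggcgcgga
Top2a: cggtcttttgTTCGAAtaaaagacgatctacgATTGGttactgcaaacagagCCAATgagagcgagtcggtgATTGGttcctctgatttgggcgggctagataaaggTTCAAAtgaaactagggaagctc
Cdk1: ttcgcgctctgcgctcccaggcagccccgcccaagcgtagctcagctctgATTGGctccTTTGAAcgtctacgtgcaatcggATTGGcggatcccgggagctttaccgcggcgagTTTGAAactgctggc
Cdc20: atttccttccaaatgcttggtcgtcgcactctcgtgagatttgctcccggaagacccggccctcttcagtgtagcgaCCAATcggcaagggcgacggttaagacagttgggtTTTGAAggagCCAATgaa
Mybl2: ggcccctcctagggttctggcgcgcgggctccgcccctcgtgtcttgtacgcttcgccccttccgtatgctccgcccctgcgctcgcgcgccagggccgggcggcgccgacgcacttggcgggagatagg

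Kif11 holds 1 CCAAT box and 1 CHR, Cdc20 holds a CHR between CCAAT boxes, Top2a and Cdk1 hold several of each, and the Mybl2 stretch holds neither. RefSeq promoters of 300 bases, 250 before the start site and 50 after it, matched 34 of the 41 listed genes. CCAAT on either strand was in 25 of the 34 (73.5%), against 37.9% of the promoters of all 27025 genes in the table. TTTGAA was in 24 (70.6%), against 18.1%, and TTCGAA, which reads the same on both strands, in 3 (8.8%), against 1.6%. Both CCAAT and one of the CHR forms were in 22 (64.7%), against 7.7%. Nuf2, which changed by -1.84 with TGFβ1 in HNGMT MEFs, held neither motif in its window. Ube2c, which changed by -0.69 in the same comparison, held both. Whether the motifs go with the size of the fall was not tested. These counts describe letters in a window and carry no test of binding.

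The effect of TGFβ1 was larger with HNGMT than without it. The difference between the 2 effects was below 0 in 39 of 40 genes, with a median of -0.55. It was called, at an adjusted p under 0.05 and 1.5-fold, in 15 genes, all toward a larger fall with HNGMT, against 2.77% of all genes in that direction, and 37 genes passed the adjusted p alone (15.9% of all genes). Without HNGMT+TGFβ1 MEF replicate 1, 8 genes were called and the median was -0.50. The culture of that number was also the lowest of the HNGMT+DMSO and HNGMT+SB MEFs, and without replicate 1 of both HNGMT+TGFβ1 and HNGMT+DMSO MEFs, a choice made after the data were seen, 15 genes were called and the median was -0.53.

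Anln had the largest such difference. It measured 9.39, 9.74 and 9.67 in HNGMT+TGFβ1 MEFs and 11.17, 11.45 and 11.30 in HNGMT+DMSO MEFs, a gap of more than 1 unit. In MEFs without the factors it measured 10.37, 10.27 and 10.31 in 0TF+TGFβ1 and 10.99, 10.84 and 10.95 in 0TF+DMSO, so that the groups again did not overlap but lay closer together. The TGFβ1 difference was -1.70 with HNGMT and -0.61 without it, and the interaction (the first minus the second) was -1.09 ± 0.11 (SE; adjusted p = 4.99e-07, limma). The condensin gene Ncapg followed at -0.90, Bub1 at -0.85, the hyaluronan-mediated motility receptor Hmmr, which binds spindle microtubules, at -0.82 and the spindle protein Dlgap5 at -0.76. By role, calls fell on 5 of 8 spindle genes, 4 of 8 checkpoint and kinetochore genes, 2 of 4 chromosome genes, 2 of 6 cytokinesis genes, 1 of 6 kinases, 1 of 5 regulators and 0 of 3 anaphase genes. Plk1 (-0.63) and Top2a (-0.59) were among the called genes, and Cdk1 (-0.55), Birc5 (-0.55), Foxm1 (-0.48), Cdc20 (-0.44) and Mki67 (-0.36) passed the adjusted p alone. Cenpf (-0.19), Ncaph (-0.07) and Kif23 (0.17) did not pass the adjusted p.

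The factors themselves were compared within each molecule. With DMSO, 22 of 40 genes were higher with HNGMT at an adjusted p under 0.05 (21.6% of all genes passed in that direction), none passed the 1.5-fold limit (4.56% of all genes did), and none was lower at that p. The median difference was 0.18 and the range -0.05 to 0.38. Mki67 measured 11.38, 11.60 and 11.54 in HNGMT+DMSO MEFs and 11.38, 11.28 and 11.35 in 0TF+DMSO MEFs, a difference of 0.17 ± 0.055 (SE; adjusted p = 0.0191, limma), and the groups did not overlap, although the lowest HNGMT+DMSO culture and the highest 0TF+DMSO culture were both at 11.38. Birc5 (0.25), Plk1 (0.24) and Cdk1 (0.16) also passed the adjusted p, whereas Top2a (0.17), Cdc20 (0.13) and Foxm1 (0.09) did not. With SB the genes stood likewise: 28 of 40 were higher with HNGMT at the adjusted p (21.7% of all genes), and 2, Kif23 at 0.66 and Pbk, a mitotic kinase, at 0.62, passed the fold limit (5.04% of all genes). Plk1 (0.35), Cdk1 (0.24), Top2a (0.22), Mki67 (0.20) and Foxm1 (0.18) passed the adjusted p, and Cdc20 (0.18) and Birc5 (0.16) did not. Without 0TF+SB replicate 2 the Pbk difference was 0.55, under the limit.

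With TGFβ1 the order turned round. Of the 40 genes, 33 were lower with HNGMT at an adjusted p under 0.05, against 23.6% of all genes, and 4 passed the 1.5-fold limit, against 3.88%. The 4 were Anln (-0.72), Bub1 (-0.71), the cytokinesis regulator Racgap1 (-0.64) and Ncapg (-0.60). Bub1 measured 8.16, 8.54 and 8.54 in HNGMT+TGFβ1 MEFs and 8.99, 9.19 and 9.19 in 0TF+TGFβ1 MEFs, without overlap. The median difference was -0.38. Top2a (-0.42), Foxm1 (-0.40), Cdk1 (-0.39), Plk1 (-0.39), Cdc20 (-0.31), Birc5 (-0.30) and Mki67 (-0.19) passed the adjusted p. Without HNGMT+TGFβ1 replicate 1 the median was -0.32 and 2 genes were called, Anln lower and Kif23 higher; without replicate 2 of that group 7 were called.

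Kif23 moved against the majority. It measured 9.94, 10.05 and 10.06 in HNGMT+TGFβ1 MEFs and 9.48, 9.46 and 9.45 in 0TF+TGFβ1 MEFs, a difference of 0.55 ± 0.05 (SE; adjusted p = 5.47e-08, limma), and the groups did not overlap. It was higher with HNGMT under all 3 molecules, by 0.66 with SB and 0.38 with DMSO. Kif23 encodes the kinesin subunit of centralspindlin, and its partner in that complex, Racgap1, was one of the 4 genes called lower with HNGMT under TGFβ1. Racgap1 measured 8.76, 9.16 and 9.04 in HNGMT+TGFβ1 MEFs and 9.50, 9.71 and 9.66 in 0TF+TGFβ1 MEFs. Ect2, the exchange factor that centralspindlin recruits to start the cleavage furrow, stood nearest to Kif23, at 0.10 under TGFβ1.

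**Figure D3:**
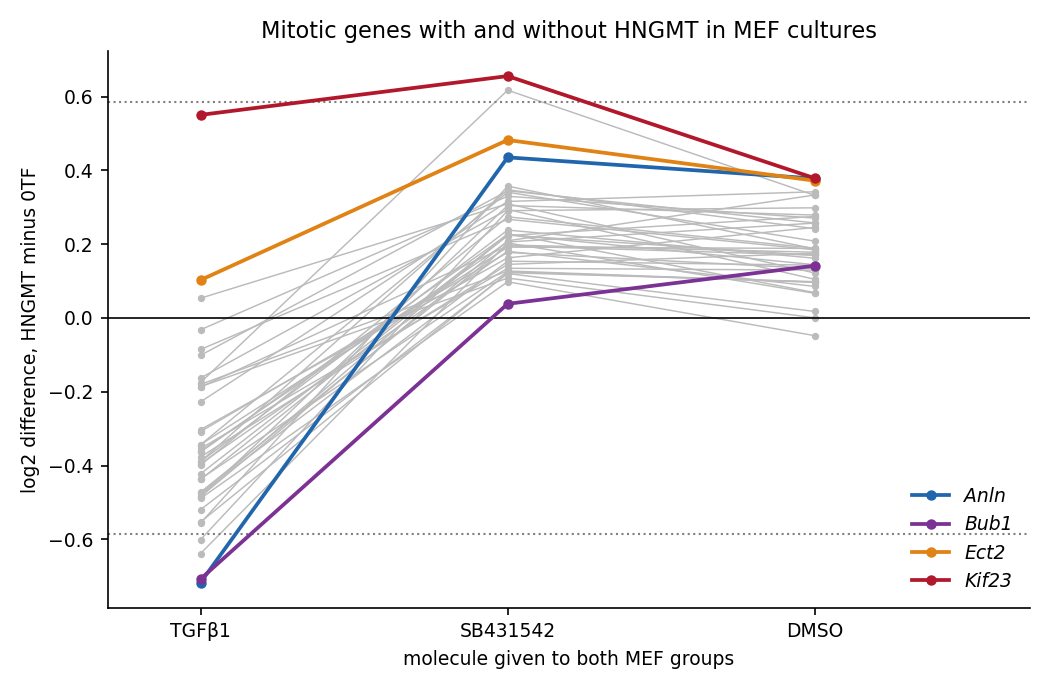
Log2 difference between HNGMT and 0TF MEFs for each mitotic gene (lines join the points of 1 gene) when both groups received TGFβ1, SB431542 or DMSO, with dotted lines at a 1.5-fold change. With TGFβ1 37 of 40 genes lie below 0, with SB all 40 and with DMSO 39 lie above it, and Kif23 is highest at each position.

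Of 13 cardiomyocyte markers, 11 were called higher with HNGMT under DMSO, against 4.56% of all genes, and 10 under TGFβ1, against 6.37%. The 13 averaged 9.77 in HNGMT+TGFβ1 MEFs and 9.82 in HNGMT+DMSO MEFs. Of the inhibitor genes, Cdkn1c was 3.11 higher with HNGMT under TGFβ1 (adjusted p = 7.44e-19, limma), having changed by -2.65 with TGFβ1 in 0TF MEFs. Their part in the mitotic genes was not tested.

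SB431542, which blocks the receptor that TGFβ1 activates, gave median differences from the vehicle of -0.05 in HNGMT MEFs and -0.09 in 0TF MEFs. In HNGMT MEFs no gene was called, against 0.431% of all genes called lower, and no gene passed the adjusted p (limma); at an unadjusted p under 0.05 there were 1 higher, against 8.82% of all genes, and 2 lower, against 8.55%. The differences ranged from -0.21 to 0.13. Mki67 measured 11.45, 11.49 and 11.52 in HNGMT+SB MEFs and 11.38, 11.60 and 11.54 in HNGMT+DMSO MEFs, with overlap, and its 95% interval of -0.14 to 0.10 lay within the 1.5-fold limits. The differences of Top2a (-0.07), Birc5 (-0.13), Cdc20 (-0.04), Foxm1 (-0.03) and Cdk1 (0.01) were as small, and Plk1 differed by less than 0.01.

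In MEFs without the factors all 40 differences were below 0. None passed the fold limit, against 1.13% of all genes called lower and 1.26% called higher. At the adjusted p 4 passed, Kif23, Anln, Ect2 and Aurka, against 7.87% of all genes lower. In 16 of the 40 genes all 3 0TF+SB cultures lay below all 3 0TF+DMSO cultures, against 14.7% of all genes, and in none did they lie above. Kif23 measured 10.52, 10.46 and 10.49 in 0TF+SB MEFs and 10.92, 10.71 and 10.74 in 0TF+DMSO MEFs, a difference of -0.30 without overlap. The effect of SB on Kif23 differed between HNGMT and 0TF MEFs by 0.28 (adjusted p = 0.0193, limma), under the fold limit, and it was the one gene of the 40 to pass, where 4.13% of all genes did in that direction. Mki67 (-0.05), Birc5 (-0.05), Cdk1 (-0.07), Cdc20 (-0.08), Plk1 (-0.11), Top2a (-0.12) and Foxm1 (-0.13) did not pass in 0TF MEFs. The 10 adipocyte markers were all called higher with SB in these cultures, against 1.26% of all genes, with a median of 1.71. Each SB comparison shares its DMSO cultures with the TGFβ1 comparison of the same MEFs.

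In CFs TGFβ1 placed every mitotic gene below the vehicle: all 3 HNGMT+TGFβ1 cultures lay below all 3 HNGMT+DMSO cultures in 40 of 40, against 16.5% of all genes. The mean of the 40 genes was 8.66, 8.47 and 8.51 in HNGMT+TGFβ1 CFs and 9.41, 9.23 and 9.37 in HNGMT+DMSO CFs. The median difference was -0.83, a 1.78-fold lower level, and the range -1.12 to -0.31, beside 0.00 over all genes. With all 9 CF arrays in one limma fit, 4 genes were called at an adjusted p under 0.05 and the lower fold limit that the methods set for CFs (2.2% of all genes): Bub1b (-0.92), the kinase Melk (-0.70), Ccnb2 (-0.85) and Anln (-0.93). An unadjusted p under 0.05 was reached by 39 of the 40, against 11.3% of all genes lower at that p. Without replicate 3 of HNGMT+SB CFs, which takes no part in these means but enters the spread of the fit, 39 genes were called, all but Mybl2, against 5.8% of all genes. With all arrays but 1 culture of the groups compared, the count was 0 without HNGMT+TGFβ1 replicate 1, 2 or 3 or HNGMT+DMSO replicate 3, and 1 without HNGMT+DMSO replicate 1 or 2.

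Nusap1 showed the most negative difference, with 8.88, 8.70 and 8.77 in HNGMT+TGFβ1 CFs and 10.01, 9.76 and 9.94 in HNGMT+DMSO CFs. The gap between the groups was several times the spread within them, and the difference was -1.12. Mki67 measured 9.59, 9.35 and 9.49 in HNGMT+TGFβ1 CFs and 10.39, 10.34 and 10.59 in HNGMT+DMSO CFs, a difference of -0.96 (adjusted p = 0.104 with all arrays and 8.94e-05 without that replicate, limma). Bub1b, called in both fits, measured 8.17, 8.19 and 8.06 in HNGMT+TGFβ1 CFs and 9.22, 8.91 and 9.05 in HNGMT+DMSO CFs (-0.92; adjusted p = 0.0217 and 9.35e-05). Top2a changed by -1.08, Plk1 by -0.84, Cdc20 by -0.74, Foxm1 by -0.72, Cdk1 by -0.68 and Birc5 by -0.54, each without overlap. Mybl2 again changed least, at -0.31.

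The endothelial markers of these CF cultures moved in the same direction. Their mean over 20 genes ranged from 9.87 to 9.90 in HNGMT+TGFβ1 CFs and from 10.40 to 10.43 in HNGMT+DMSO CFs, 17 of 20 were lower and 1 was called lower, and Sox17 was near the bottom of the array, at 6.26 in HNGMT+TGFβ1 CFs and 6.25 in HNGMT+DMSO CFs. The mean of the 15 fibroblast markers was 10.74 ± 0.091 in HNGMT+TGFβ1 CFs and 10.67 ± 0.047 in HNGMT+DMSO CFs (SD, n = 3). Of the fibroblast markers 2 were called higher and 2 lower, with differences from -1.62 to 1.47. Of all genes, 3.11% were called higher and 2.2% lower in this comparison. The mean of the 13 cardiomyocyte markers was 9.66 ± 0.034 in HNGMT+TGFβ1 CFs and 9.98 ± 0.0031 in HNGMT+DMSO CFs, 9 of 13 were lower, and 2, among them the troponin gene Tnni3 at -1.36, were called lower and 1 higher. The part of these lists in the mitotic genes was not tested. Of the other cell-cycle genes, 8 of 56 further mitotic genes and 7 of 33 replication genes were called lower, and Cdkn2b was called higher, at 0.54 (adjusted p = 0.00447, limma). Of the 20 G1 cyclins and CDK inhibitors, 1 was called higher and 1 lower, with a median of -0.03.

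SB431542 in CFs gave means that one culture decides. The mean of the 40 genes was 9.53, 9.69 and 8.66 in HNGMT+SB CFs and 9.41, 9.23 and 9.37 in HNGMT+DMSO CFs, and replicate 3 was below every vehicle culture. No gene was called, against 0.0451% of all genes called higher and 0.196% called lower. None reached an unadjusted p under 0.05 (limma), against 2.39% of all genes higher and 3.83% lower at that p. The median difference was -0.03. Without replicate 3 the median was 0.29, 39 of 40 differences were above 0 and 3 genes were called higher, against 0.858% of all genes: Ckap2l, a spindle protein, at 0.55, Ccnb2 at 0.34 and Aurkb, the kinase of the chromosomal passenger complex, at 0.33. Ccnb2 measured 11.80, 11.83 and 10.97 in HNGMT+SB CFs and 11.42, 11.49 and 11.51 in HNGMT+DMSO CFs. Mki67 measured 10.62, 10.70 and 9.41 in HNGMT+SB CFs and 10.39, 10.34 and 10.59 in HNGMT+DMSO CFs, a difference of -0.20 with and 0.22 without replicate 3. Top2a (-0.19), Plk1 (-0.16), Cdk1 (-0.14), Birc5 (0.08), Cdc20 (0.03) and Foxm1 (0.00) had 95% intervals that all held 0. In replicate 3 the endothelial mean was 9.15, against 10.59 and 10.62 in the other two, the cardiomyocyte mean 9.08, against 9.82 and 9.85, and the fibroblast mean 11.12, against 10.60 and 10.57. The part of that make-up in its mitotic levels was not tested. The dose of SB was 5 µM in CFs and 0.5 µM in MEFs, and the 2 effects were not compared.

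**Figure D4:**
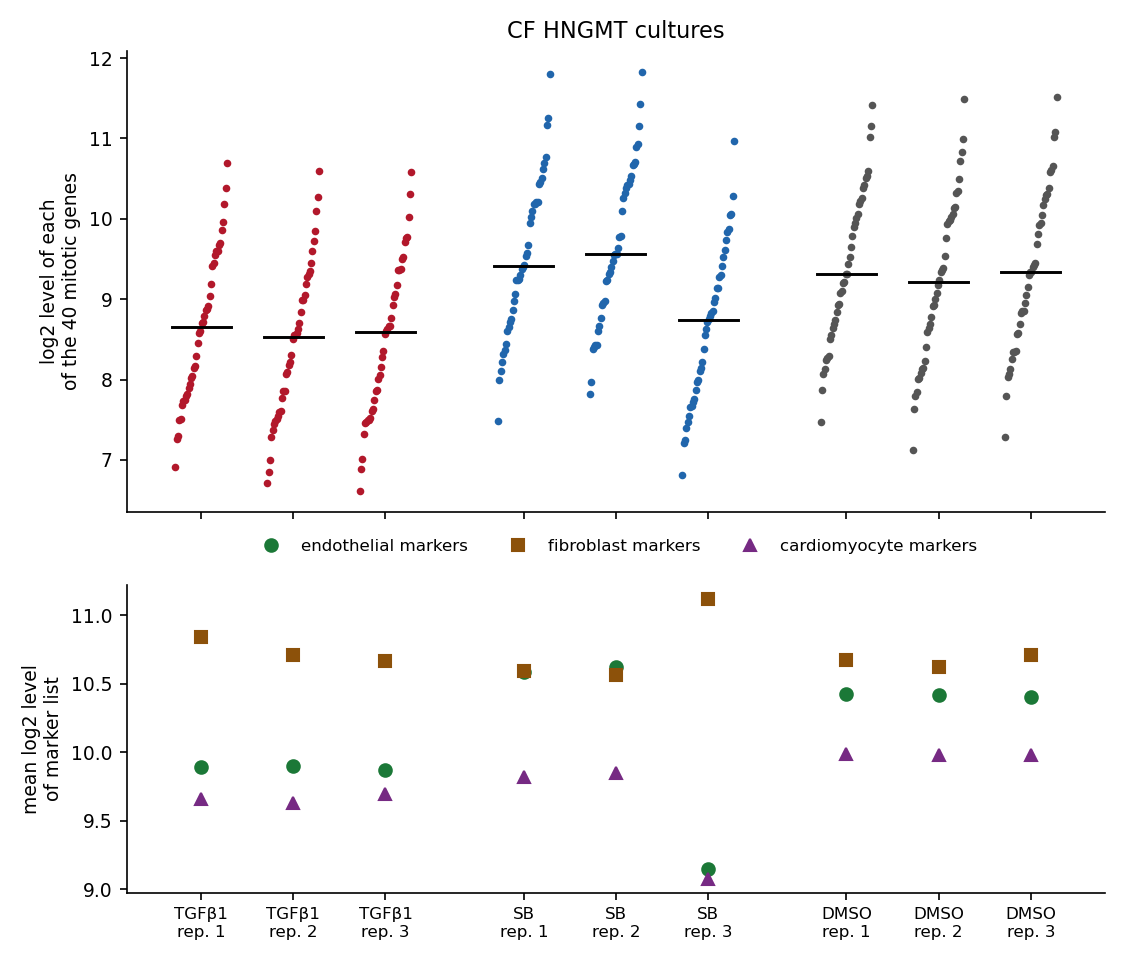
Upper panel: log2 level of each of the 40 mitotic genes (points, sorted within a culture) and their median (line) in the 9 CF HNGMT cultures. Lower panel: mean log2 level of the endothelial, fibroblast and cardiomyocyte markers in the same cultures; HNGMT+SB replicate 3 is low in the mitotic genes, at a mean of 8.66, and in the endothelial markers, at 9.15.

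TGFβ1 was given at the same dose to CFs and MEFs with HNGMT, and the 2 effects were compared. The fall was smaller in CFs for all 40 genes, with a median difference between the effects of 0.62. It was called, at an adjusted p under 0.05 and 1.5-fold, in 15 genes, against 2.68% of all genes in that direction, and in 24 without HNGMT+SB replicate 3, against 3% of all genes in that fit. The count was 5 without HNGMT+TGFβ1 CF replicate 1 or HNGMT+TGFβ1 MEF replicate 1, 6 without HNGMT+DMSO replicate 2 of CFs or of MEFs, 7 without HNGMT+DMSO MEF replicate 3 and 9 without HNGMT+TGFβ1 MEF replicate 3. Ncapg had the largest difference, at 0.97 ± 0.30 (SE; adjusted p = 0.0315, limma): it measured 7.75, 7.37 and 7.48 in HNGMT+TGFβ1 CFs and 8.70, 8.15 and 8.34 in HNGMT+DMSO CFs. Kif11 followed at 0.91, Bub1b at 0.87, the centromeric kinesin Kif2c at 0.85 and Hmmr at 0.82. Foxm1 (0.80), Plk1 (0.76) and Birc5 (0.65) were called too, while Mki67 (0.76), Top2a (0.50), Cdc20 (0.44) and Cdk1 (0.34) did not pass the adjusted p. The smallest were Mybl2 at 0.18, Ncaph at 0.23 and Ube2c at 0.24. The vehicle levels belong to scales that were not compared, the mean of the 40 genes being 9.34 ± 0.0925 in HNGMT+DMSO CFs and 10.29 ± 0.0936 in HNGMT+DMSO MEFs (SD, n = 3). Some levels were low: Ttk averaged 6.75 in HNGMT+TGFβ1 CFs and 7.24 in HNGMT+TGFβ1 MEFs, each below the array medians. The part of low levels in the smaller fall was not tested. Cell type, the endothelial transcripts of the CF cultures, age of the animals and tissue of origin cannot be told apart.

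**Figure D5:**
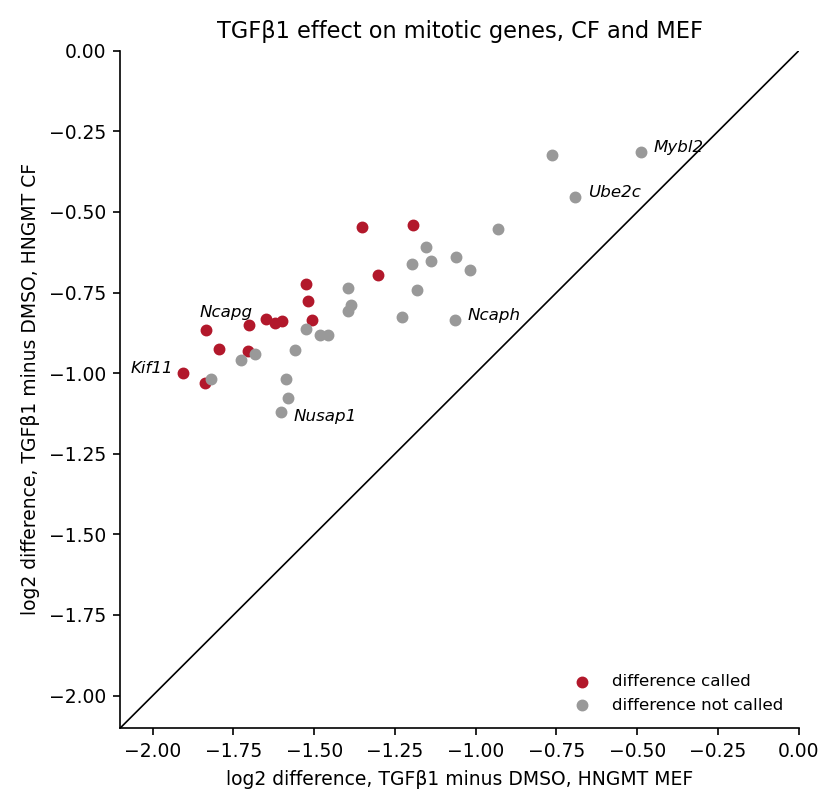
Log2 difference between TGFβ1 and DMSO for each mitotic gene in HNGMT MEFs (horizontal) and HNGMT CFs (vertical); red points are the 15 genes whose effects differed at an adjusted p under 0.05 and 1.5-fold. All 40 points lie above the line of equal effects, nearest to it for Mybl2 at 0.18.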

How the data were processed

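The authors hybridised total RNA to Affymetrix Mouse Gene 1.0 ST arrays and deposited 1 table of log2 values for 35556 probe sets on 27 arrays. Their methods and labels name Affymetrix Microarray Suite 5.0 and PartekGS; the normalization settings are not given in the sources used here, and the labels of the CF cultures carry a protocol that describes MEFs. The number of arrays limits the precision.

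Of the probe sets, 21789 named 1 gene, 1621 named several and 12146 none in the platform annotation. The brightest single-gene probe set stood for each of 19938 genes. limma 3.58.1 (R 4.3.3) was fitted with 1 coefficient per group, over the 18 MEF arrays, the 9 CF arrays or, for the difference between the cell types, all 27, with Benjamini-Hochberg adjustment over all genes. Calls needed an adjusted p under 0.05 and a fold of 1.5, or 1.25 in CFs, the limits of the study's methods. The fit was tested on simulated data.

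The genes, lists and tests were chosen with earlier results of these data known. Named with values were Mki67, Top2a, Cdk1, Cdc20, Plk1, Foxm1 and Birc5, the 5 largest called changes per comparison without overlap, the extremes of each role, genes that moved against the majority and genes whose effects differed by an interaction test. Other genes came from lists, at most the 3 largest per list and comparison. Ect2, Cdkn2b, Cdkn1c in one comparison and the single cell-type markers were chosen after their values were seen. The alternatives were other scalings, probe-set summaries, filters, weights, variance models and fold limits, a replicate block, fewer arrays and leaving out each culture.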

Additional observations from a re-analysis of the deposited data

Results flagged for a closer look

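In MEFs the effect of TGFβ1 with HNGMT differed from that without it, by the test of the difference itself (limma, adjusted p under 0.05 and 1.5-fold), in 15 mitotic genes. The same call was met toward a larger fall with HNGMT by 2.77% of all genes, and the count was 8 to 21 with 1 culture left out. The log2 difference of the effects was -1.09 for Anln, -0.90 for Ncapg, -0.85 for Bub1, -0.82 for Hmmr, -0.76 for Dlgap5, -0.74 for Nuf2, -0.71 for Kif2c and Racgap1, -0.65 for Ccnb2 and Bub1b, -0.63 for Plk1, -0.62 for Ttk and Tpx2 and -0.59 for Kif11 and Top2a. The effect of SB differed for Kif23 alone, by 0.28, at the adjusted p but under the fold limit. At that p 4.13% of all genes passed in that direction.

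The effect of TGFβ1 in HNGMT CFs differed from that in HNGMT MEFs, by the same test, in 15 genes. The same call was met in that direction by 2.68% of all genes. The count was 5 to 13 with 1 culture of the compared groups left out, and 24 without HNGMT+SB CF replicate 3. The log2 difference was 0.97 for Ncapg, 0.91 for Kif11, 0.87 for Bub1b, 0.85 for Kif2c, 0.82 for Hmmr, 0.81 for Nuf2, 0.80 for Foxm1 and Ttk, 0.78 for Ccnb2, 0.77 for Anln, 0.76 for Plk1, 0.74 for Ckap2l, 0.67 for Aurkb, 0.65 for Birc5 and 0.61 for Melk. Of the genes of either kind, 10 were called in both TGFβ1 tests, which share the HNGMT MEF cultures.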

How the results depend on the processing

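Counts are of the 40 mitotic genes called in either direction, and no gene called in the fits with all arrays described above changed sign under any alternative. Aurkb, uncalled for SB in CFs at -0.0054, was called higher at 0.33 without HNGMT+SB replicate 3. With an adjusted p and no fold limit, counts for HNGMT against 0TF were 22 with DMSO, 34 with TGFβ1 and 28 with SB. The shares of all genes higher and lower were 21.6% and 18.9% with DMSO, 20.5% and 23.6% with TGFβ1, and 21.7% and 20.1% with SB. For SB in 0TF MEFs the count was 4, against 8.71% and 7.87%. For the difference between HNGMT and 0TF it was 37 with TGFβ1, against 15.4% and 15.9%, and 1 with SB, against 4.13% and 4.3%. At a 2-fold limit counts were 11 for TGFβ1 in 0TF MEFs, against 3.05% of all genes called lower. They were 1 for the TGFβ1 difference between HNGMT and 0TF, against 0.757% of all genes toward a larger fall with HNGMT. They were 0 for HNGMT against 0TF with TGFβ1 or SB, for TGFβ1 in CFs and for CFs against MEFs. In each of these, 3.01% of all genes or fewer were called in each direction. With arrays shifted to a common median, HNGMT against 0TF gave 7 with TGFβ1 and 1 with SB, and the TGFβ1 difference 24. With SB, quantile normalization and array weights each gave 1. For other scalings, filters, weights, models and choices of arrays, shares of all genes were counted only without HNGMT+SB replicate 3. A moved count in the rest may concern more than the mitotic genes.

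For TGFβ1 in CFs, array weights gave 39, only the arrays compared 39, a filter on dim genes 10, and leaving out HNGMT+SB replicate 3, chosen after seeing the data, 39. For SB in CFs array weights gave 3. For CFs against MEFs, only the arrays compared gave 23 and leaving out that replicate 24. Leaving out each culture in turn gave 2 to 7 for HNGMT against 0TF with TGFβ1 and 1 to 2 with SB, 34 to 35 for TGFβ1 in 0TF MEFs, 0 to 1 for TGFβ1 and 0 to 3 for SB in CFs, 8 to 21 for the TGFβ1 difference and 5 to 13 for CFs against MEFs. The cause was not tested.

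The labels do not say that a replicate number marks a shared source. Deviations from the group means correlated by over 0.1 in 9 of 45 same-numbered pairs of MEFs and 4 of 9 of CFs, and 7 of 18 MEF and 5 of 9 CF arrays correlated best with their own number. Within HNGMT MEFs alone these were 6 of 9 pairs and 8 of 9 arrays, a hint from the data that the numbers pair those cultures, and within 0TF MEFs 1 of 9 and 2 of 9. A replicate block gave 1 call for TGFβ1 in CFs and 15 for the TGFβ1 difference between HNGMT and 0TF, and moved no count other than that in CFs by over 1.5 times.

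Uncalled SB effects changed sign. In 0TF MEFs Birc5 ranged between -0.1006 and 0.026 with a culture left out, and Top2a was 0.0553 with the mean of its probe sets. In HNGMT MEFs the lowest and highest with a culture left out were -0.0659 and 0.0005 for Cdc20, -0.0507 and 0.0508 for Cdk1, -0.0751 and 0.0064 for Foxm1, -0.0838 and 0.0242 for Mki67 and -0.0433 and 0.0394 for Plk1. Cdk1 was -0.0076 at a common median and -0.08 with array weights, and Plk1 0.0023 with quantile normalization and 0.0415 with array weights. In CFs the lowest and highest were -0.0969 and 0.3439 for Birc5, -0.167 and 0.3059 for Cdc20, -0.1743 and 0.3043 for Foxm1, -0.284 and 0.1547 for Cdk1, -0.4269 and 0.2181 for Mki67, -0.3774 and 0.155 for Plk1 and -0.4701 and 0.2951 for Top2a. Array weights gave 0.1331 for Cdk1, 0.033 for Mki67, 0.0498 for Plk1 and 0.2044 for Top2a.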
